A study of Rattus norvegicus with 19 samples.

Results

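The neuropeptide precursor genes of the hypothalamic paraventricular nucleus (PVN) and of the cell groups around it were followed through 19 RNA sequencing libraries of rat PVN punches. A list of 10 genes was taken by Ensembl identifier, and 8 of the 10 were kept, out of 30560 genes in the count table. They are Crh (ENSRNOG00000012703), Trh (ENSRNOG00000011824), Sst (ENSRNOG00000001837), Pdyn (ENSRNOG00000026036), Npy (ENSRNOG00000046449), Pomc (ENSRNOG00000012686), Cartpt (ENSRNOG00000017712) and Vip (ENSRNOG00000018808). The rule kept a gene whose row was present and whose mean was at least 5 counts. The row of Penk, the proenkephalin gene (ENSRNOG00000008943), was listed at 0 in all 19 libraries, and it is not known whether this identifier was the one in use for Penk in the annotation that was counted. A count of 0 allows up to 3 counts per library (6 if both reads of a pair were counted), and nothing was read from it about enkephalin in the tissue. Tac1, which encodes the substance P precursor, was not analysed here.

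The study set spontaneously hypertensive rats (SHR), an inbred line with high blood pressure, against Wistar rats, the normotensive controls, in both sexes, to ask how hypertension and sex relate to the PVN transcriptome. There were 4 libraries of Wistar males, 5 of SHR males, 5 of Wistar females and 5 of SHR females. All rats were aged 14 weeks, had carried an implanted blood pressure transmitter, and the females were recorded in dioestrus. Each library came from poly(A) RNA of 1 mm tissue cores taken on both sides of the brain. Wistar rats are not the line from which SHR were bred, so differences in genetic background and differences in blood pressure cannot be told apart. Each library is labelled with a numbered rat of its group, and p-values measure the spread between these rats. Library totals ran from 44943945 to 58793511 counts. Levels are given as CPM, the counts of a gene in every 1000000 counts of its library. No gene lengths were used, so levels were compared between groups and not between genes.

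The PVN drives the pituitary, the sympathetic nervous system and feeding through peptides cut from larger precursor proteins. Its parvocellular neurons release corticotropin-releasing hormone, thyrotropin-releasing hormone and somatostatin, which set the output of the anterior pituitary. Neuropeptide Y and the melanocortin precursor Pomc are made mainly in the arcuate nucleus, CART (cocaine- and amphetamine-regulated transcript) in several hypothalamic nuclei, and vasoactive intestinal peptide in the suprachiasmatic nucleus. A transcript of the latter kind in a punch therefore also depends on how much neighbouring tissue the punch holds. In such bulk tissue, fewer cells of a type and less RNA per cell cannot be told apart.

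A pair of Wistar female libraries stood apart in these genes. Wistar female replicate 1 had 2.58 CPM of Crh against 23.4 to 46.6 CPM in the other Wistar females, 16.8-fold under their median. In the same library Trh was 4.65-fold and Sst 7.14-fold under the median of the other Wistar females, while Pdyn was at 129 CPM against their median of 128 CPM. Pomc (2.04-fold) and Cartpt (1.68-fold) were also under that median, Npy was 1.197-fold under it and Vip 2.51-fold over it. A smaller joint drop was seen in SHR male replicate 2, the lowest SHR male in Crh, Trh and Sst. These were 1.61-fold, 1.58-fold and 2.57-fold under the median of the other SHR males. SHR female replicate 3 was the lowest SHR female in Trh, Sst, Pdyn, Npy, Pomc, Cartpt and Vip, though not in Crh. Its values in these genes were from 1.22-fold (Cartpt) to 2.79-fold (Pomc) under the median of the other SHR females. Wistar female replicate 4 had 96.9 CPM of Vip against 0.249 to 6.80 CPM in the other Wistar females, with the lowest Pdyn (67.9 CPM) and Cartpt (84.4 CPM) of its group. Where leaving out both Wistar female libraries, replicates 1 and 4, changed a call, a sign or the size of a value by much, the value without them is also given. They were picked out on these genes, after their values were seen, so p-values without them are not independent of that choice.

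**Figure D1:**
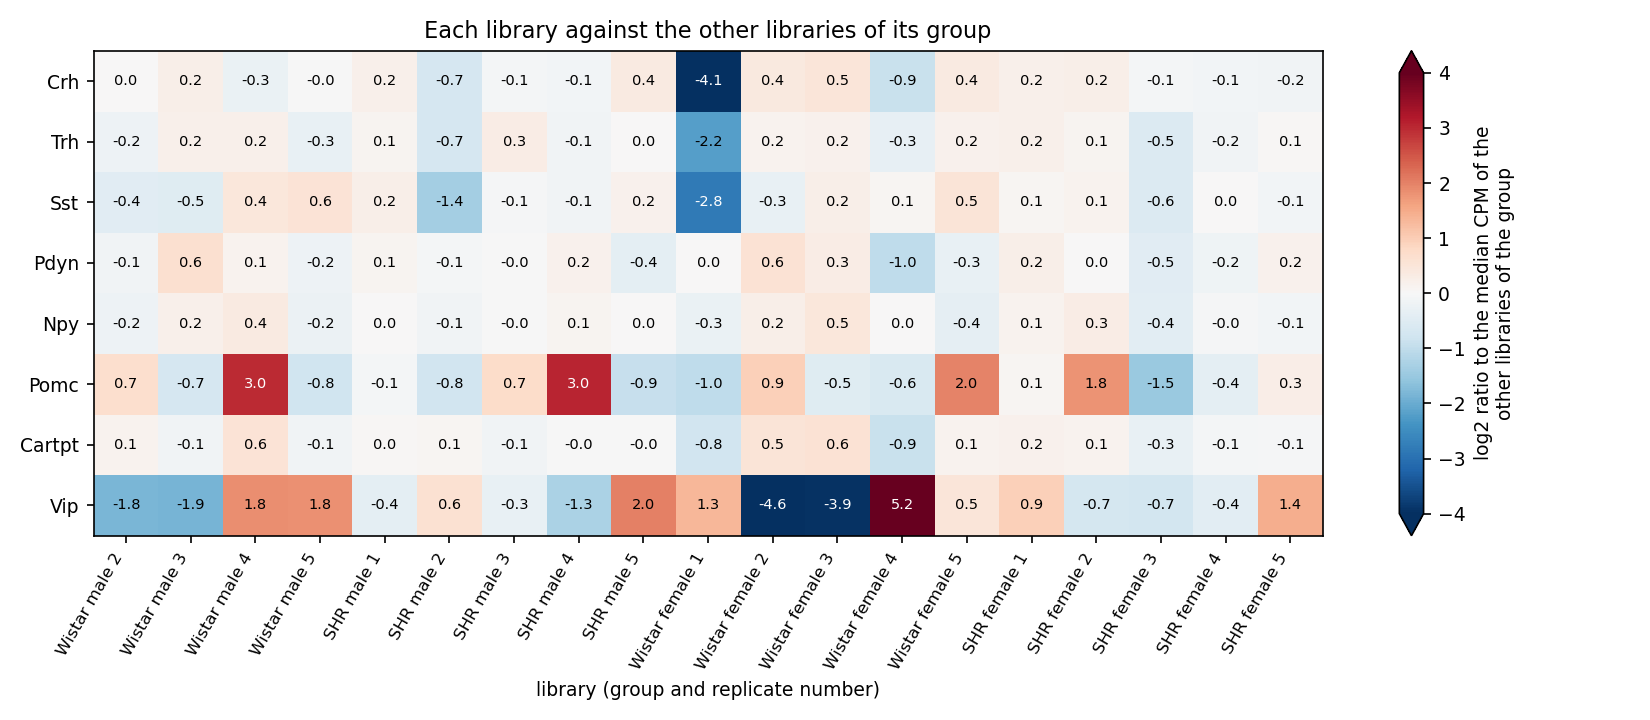
Log2 ratio of each library's CPM to the median CPM of the other libraries of its group (colour and number), for 8 precursors (rows) in 19 libraries (columns, named by group and replicate). Crh, Trh and Sst are low together in Wistar female replicate 1 (2.58, 48.4 and 43.5 CPM), and Vip is highest in Wistar female replicate 4 (96.9 CPM).

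Npy and Cartpt rose in SHR males and over both sexes together, and no other kept precursor passed the test in either comparison. With edgeR's quasi-likelihood test and Benjamini-Hochberg adjustment over all genes tested, 2 of the 8 precursors passed an adjusted p of 0.05 in SHR against Wistar males, where 12% of all 17461 genes tested did. Over both sexes the same test, with sex as a term, called 2 of 8 against 13.8% of 17432 genes, and these were again Npy and Cartpt. In females it called none of 8, against 2.32% of 17404 genes. The median log2 fold change of the 8 precursors was 0.12 in males and -0.10 in females, beside -0.0036 and -0.0031 over all genes. Beside these background shares, nothing was read from a count of 2 among so few genes.

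Npy encodes neuropeptide Y, an appetite-stimulating peptide that also reaches the PVN in fibres from the arcuate nucleus and brainstem. The Wistar males had 13.1, 15.1, 16.8 and 12.8 CPM and the SHR males 20.9, 19.1, 20.6, 22.4 and 20.9 CPM. Every SHR male lay above every Wistar male. Among females, the Wistar libraries had 10.9, 13.7, 16.04, 12.5 and 10.1 CPM and the SHR libraries 20.8, 23.4, 14.98, 19.1 and 18.6 CPM. Here a single SHR library, replicate 3, fell below the highest Wistar library, and the other 4 lay above all Wistar females. Replicate 3 was the lowest SHR female in most of the precursors, not in Npy alone. The log2 fold change in males was 0.58 ± 0.092 (SE; edgeR's quasi-likelihood test, Benjamini-Hochberg adjusted p = 0.0026). In females it was 0.58 ± 0.15, with an unadjusted p of 0.0024 and an adjusted p of 0.073 in the same edgeR test. The female difference was as large as the male one and did not pass. Over both sexes the log2 fold change was 0.58 ± 0.092 (edgeR adjusted p = 0.000215), and the gene passed in all 26 alternatives of this comparison, not counting Bonferroni adjustment.

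The female result for Npy depended on the test. It passed with DESeq2's Wald test (adjusted p = 0.0065, where 6.29% of all genes passed) and with all 4 groups in 1 edgeR fit (adjusted p = 0.0097, 6.33% of all genes). It also passed in edgeR without SHR female replicate 3 (adjusted p = 0.0486, 1.64% of all genes) and without Wistar female replicate 3 (adjusted p = 0.0381, 1.76% of all genes). Over the 18 alternatives in females the adjusted p ran from 0.0065 to 0.24, and 4 of them passed. Group means ran from 20.8 ± 1.16 CPM (SD) in SHR males and 19.4 ± 3.08 in SHR females to 14.5 ± 1.86 in Wistar males and 12.7 ± 2.34 in Wistar females. Within each strain, the males and females next to each other in this order did not pass the test of sex.

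Cartpt encodes the CART peptides, which reduce feeding and act on autonomic neurons. The Wistar males had 132, 119.8, 178 and 121 CPM and the SHR males 230.2, 238, 206, 223 and 224 CPM. The male groups were fully separated, and the SHR males were the tighter group, with a coefficient of variation of 5.32% against 20.01%. The Wistar male spread rested on replicate 4 (178 CPM), as the other Wistar males lay between 119.8 and 131.7 CPM. The Wistar females had 93.0, 168, 178, 84.4 and 145 CPM and the SHR females 206, 199.7, 157, 179.5 and 183 CPM. Of the 5 SHR females, 4 exceeded every Wistar female, and the exception was again SHR female replicate 3 (157 CPM). The lowest values were those of Wistar female replicates 1 and 4. The log2 fold change was 0.76 ± 0.11 in males (edgeR's quasi-likelihood test, Benjamini-Hochberg adjusted p = 0.0017) and 0.44 ± 0.19 in females (edgeR adjusted p = 0.26). Over both sexes it was 0.60 ± 0.13 (edgeR adjusted p = 0.0031). Without Wistar female replicates 1 and 4 the female value shrank to 0.16 ± 0.11 (edgeR adjusted p = 0.61), while that over both sexes remained past the threshold at 0.49 ± 0.11 (edgeR adjusted p = 0.0058).

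Npy and Cartpt were also the only 2 of 8 precursors whose male groups did not overlap in CPM, against 14.5% of all genes tested. No precursor was free of overlap in females, where 5.28% of all genes were, or between all SHR and all Wistar libraries, where 1.66% were.

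**Figure D2:**
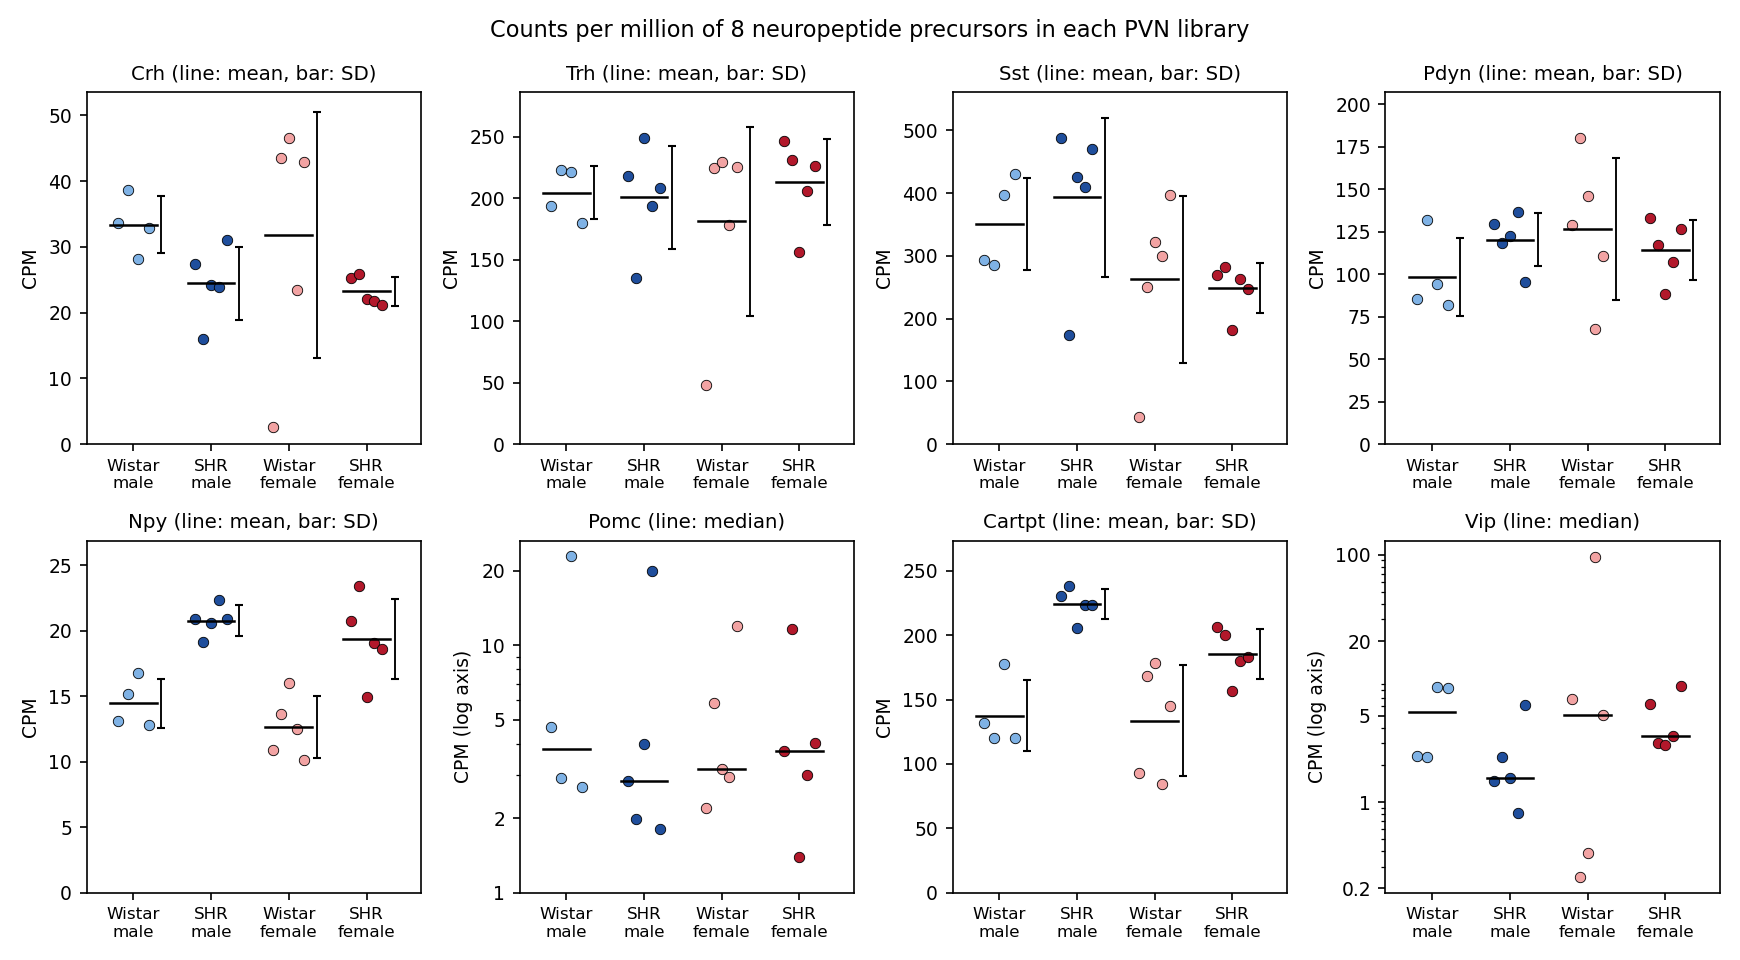
CPM of each precursor (panels) in each library (points) by group. Lines are group means with SD bars, or medians for Pomc and Vip, which are drawn on log axes. For Npy and Cartpt all SHR males lie above all Wistar males (lowest SHR males 19.1 and 206 CPM, highest Wistar males 16.8 and 178 CPM).

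The promoters of Npy and Cartpt are shown because these genes rose together in SHR males. The windows are RefSeq sequences of assembly GRCr8, a later build than the Rn7 used for counting, and run from 250 bases before to 50 bases after the annotated transcript start, 5′ to 3′ on the strand of the gene. Capitals mark matches on either strand to 4 motifs, namely the cyclic AMP response element TGACGTCA, the GC box GGGCGG, the CCAAT box CCAAT and the TATA box TATAAA. Npy lies at chr4:80211861-80212160 on the plus strand and Cartpt at chr2:32991186-32991485 on the minus strand.
Npy: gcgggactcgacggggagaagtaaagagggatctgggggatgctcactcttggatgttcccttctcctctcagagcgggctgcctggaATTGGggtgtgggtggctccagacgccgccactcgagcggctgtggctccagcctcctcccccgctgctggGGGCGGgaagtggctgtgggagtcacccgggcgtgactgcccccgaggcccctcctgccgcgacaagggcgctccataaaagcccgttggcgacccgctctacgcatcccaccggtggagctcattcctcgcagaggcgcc
Cartpt: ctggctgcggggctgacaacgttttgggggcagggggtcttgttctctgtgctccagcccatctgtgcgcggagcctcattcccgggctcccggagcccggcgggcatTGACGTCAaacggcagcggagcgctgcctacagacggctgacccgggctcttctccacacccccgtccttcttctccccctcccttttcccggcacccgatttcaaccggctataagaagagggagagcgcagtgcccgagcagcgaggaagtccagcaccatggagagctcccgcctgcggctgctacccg
The Npy window held a GC box at bases 160 to 165 and a CCAAT box on the opposite strand at bases 89 to 93, counted from the first base of the window. The Cartpt window held a cyclic AMP response element at bases 109 to 116. No motif of the 4 was common to both windows. Of the 7 kept precursors with a window, Cartpt and Sst held this response element, which 1.83% of all 33469 promoter windows did. The Sst match lay at bases 253 to 260, after the annotated transcript start, while that of Cartpt lay before it. The GC box occurred in 33.1% of all windows, the CCAAT box in 37.5% and the TATA box in 14.2%. The matches describe letters only, and no binding was measured.

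Pomc, the precursor of the melanocortins and of beta-endorphin, had 1 high library in every group. Its CPM ran from 2.69 to 23.0 in Wistar males, from 1.81 to 19.9 in SHR males, from 2.20 to 12.01 in Wistar females and from 1.40 to 11.7 in SHR females. The group medians were 3.80, 2.83, 3.15 and 3.74 CPM in turn. The high libraries were replicate 4 in both male groups, replicate 5 of the Wistar females and replicate 2 of the SHR females. The strain difference was -0.42 ± 0.77 in males, -0.13 ± 0.54 in females and -0.27 ± 0.52 over both sexes on the log2 scale (edgeR adjusted p = 0.76, 0.93 and 0.78). Without Wistar female replicates 1 and 4 the female value was -0.54 ± 0.56 and that over both sexes -0.46 ± 0.55 (edgeR adjusted p = 0.75 and 0.62). Differences of this gene smaller than its spread could not be resolved.

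Crh encodes corticotropin-releasing hormone, which starts the pituitary-adrenal stress response. The Wistar males had 33.6, 38.7, 28.2 and 32.9 CPM and the SHR males 27.4, 16.01, 24.2, 23.9 and 31.1 CPM. A single SHR male, replicate 5, lay above the lowest Wistar male. The Wistar females had 2.58, 43.5, 46.6, 23.4 and 43.0 CPM and the SHR females 25.2, 25.9, 22.04, 21.8 and 21.2 CPM. Wistar female replicates 2, 3 and 5 lay above every SHR female, replicate 4 lay within their range, and replicate 1 lay far below it. The log2 fold change was -0.39 ± 0.15 in males (edgeR unadjusted p = 0.019, adjusted p = 0.096), -0.46 ± 0.49 in females (edgeR adjusted p = 0.67) and -0.43 ± 0.28 over both sexes (edgeR adjusted p = 0.34). Crh thus did not pass in the main edgeR test of any comparison.

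The call for Crh turned on the test and on the Wistar female libraries. In males DESeq2's Wald test gave an adjusted p of 0.047, where 17.1% of all genes passed. Over both sexes and without Wistar female replicate 1, the log2 fold change was -0.57 ± 0.13 (edgeR adjusted p = 0.0054), where 13.9% of all genes passed. Without Wistar female replicates 1 and 4 it was -0.64 ± 0.11 over both sexes (edgeR adjusted p = 0.00087, 13.4% of all genes). In females it was then -0.94 ± 0.099 (edgeR adjusted p = 0.00079, 1.62% of all genes). Of these libraries, replicate 4 had 23.4 CPM of Crh, within the SHR female range. No female fit with only 1 library left out passed for Crh (edgeR adjusted p of at least 0.053). The mean of the Wistar females was 31.8 ± 18.7 CPM (SD, n = 5) with both libraries and 44.4 ± 1.93 CPM (n = 3) without them, beside 23.2 ± 2.14 CPM in SHR females. The adjusted p ran from 0.047 to 0.59 over the 16 alternatives in males, from 0.00079 to 0.89 over the 18 in females and from 0.00087 to 0.57 over the 26 over both sexes. The sign of the Crh difference was negative in all of these.

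**Figure D3:**
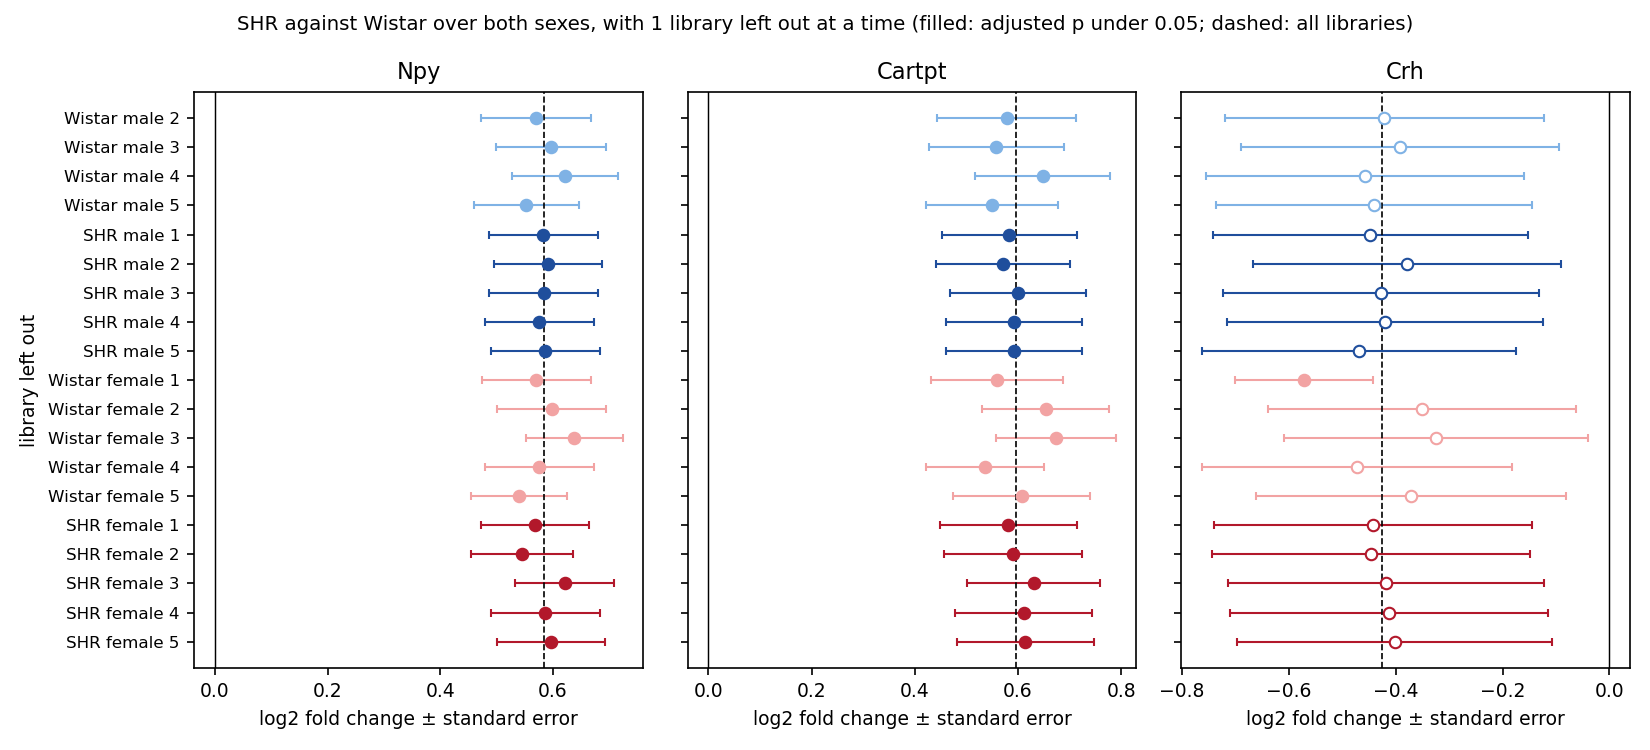
Log2 fold change of Npy, Cartpt and Crh in SHR against Wistar over both sexes (x axis, with standard error bars) when the library named on the y axis is left out, with the scale differing between panels. Npy and Cartpt pass without any 1 library, and Crh passes without Wistar female replicate 1 (log2 fold change -0.57) alone.

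Trh, the thyrotropin-releasing hormone precursor that controls the thyroid axis, showed no strain difference that passed. Its CPM ran from 179.5 to 223 in Wistar males, 135 to 249 in SHR males, 48.4 to 229 in Wistar females and 156 to 246 in SHR females. All ranges overlapped, and without Wistar female replicates 1 and 4 the remaining 3 Wistar females lay between 225 and 229 CPM. The log2 fold change was 0.028 ± 0.14 in males, 0.22 ± 0.30 in females and 0.13 ± 0.19 over both sexes (edgeR adjusted p = 0.92, 0.75 and 0.69). The sign in females and over both sexes rested on the Wistar female libraries that stood apart, as it was -0.10 ± 0.12 and -0.022 ± 0.10 without both (edgeR adjusted p = 0.79 and 0.92). Without replicate 1 alone the female value was -0.012.

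Sst encodes somatostatin, which inhibits growth hormone release and is also made by local interneurons. Its CPM ran from 285 to 429.98 in Wistar males, 174 to 488 in SHR males, 43.5 to 397 in Wistar females and 181 to 282 in SHR females. The low end in SHR males was replicate 2, and the other 4 SHR males had at least 409.6 CPM. The strain difference was 0.22 ± 0.23 in males, -0.081 ± 0.38 in females and 0.062 ± 0.25 over both sexes (edgeR adjusted p = 0.56, 0.93 and 0.90). Without Wistar female replicates 1 and 4 it was -0.38 ± 0.14 in females and -0.053 ± 0.17 over both sexes (edgeR adjusted p = 0.28 and 0.87). Without SHR male replicate 2 the male value was 0.41 ± 0.11 and passed (edgeR adjusted p = 0.045, 8.71% of all genes), the lowest of 16 alternatives that reached up to 0.85.

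Pdyn encodes prodynorphin, the source of the dynorphin opioid peptides, and in the PVN is made mostly in vasopressin neurons. Its CPM ran from 82.2 to 132 in Wistar males, 95.2 to 136 in SHR males, 67.9 to 180.2 in Wistar females and 88.4 to 133 in SHR females. Wistar male replicate 3 lay among the SHR males, and the other 3 Wistar males lay below all of them. The log2 fold change was 0.35 ± 0.14 in males (edgeR unadjusted p = 0.031, adjusted p = 0.13), -0.19 ± 0.22 in females (edgeR adjusted p = 0.70) and 0.067 ± 0.15 over both sexes (edgeR adjusted p = 0.82). Without Wistar male replicate 3 the male value was 0.52 ± 0.11 and passed (edgeR adjusted p = 0.016, 8.01% of all genes), in a range of 0.016 to 0.33 over 16 alternatives. Without Wistar female replicates 1 and 4 the female value was -0.37 ± 0.17 (edgeR adjusted p = 0.39).

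Vip encodes vasoactive intestinal peptide, a marker of the suprachiasmatic nucleus, and had its widest scatter in the Wistar females. The Wistar males had 2.38, 2.31, 8.54 and 8.41 CPM and the SHR males 1.48, 2.31, 1.56, 0.809 and 6.13 CPM. The Wistar females had 6.80, 0.249, 0.386, 96.9 and 5.04 CPM and the SHR females 6.19, 2.98, 2.91, 3.44 and 8.76 CPM. Within the Wistar females the highest library had 389.6-fold the level of the lowest, compared with 3.00-fold within the SHR females. The groups overlapped in both sexes.

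The log2 fold change of Vip was -1.07 ± 0.54 in males (edgeR adjusted p = 0.21), -2.16 ± 1.17 in females (edgeR adjusted p = 0.38) and -1.68 ± 0.74 over both sexes (edgeR adjusted p = 0.14). In males it passed without SHR male replicate 5 (-1.72 ± 0.46, edgeR adjusted p = 0.042, 9.97% of all genes), in a range of 0.042 to 0.57 over 16 alternatives. In females the sign rested on Wistar female replicate 4. Without it and replicate 1 the value was 1.41 ± 0.77 (edgeR adjusted p = 0.48), and that over both sexes was -0.049 ± 0.60.

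**Figure D4:**
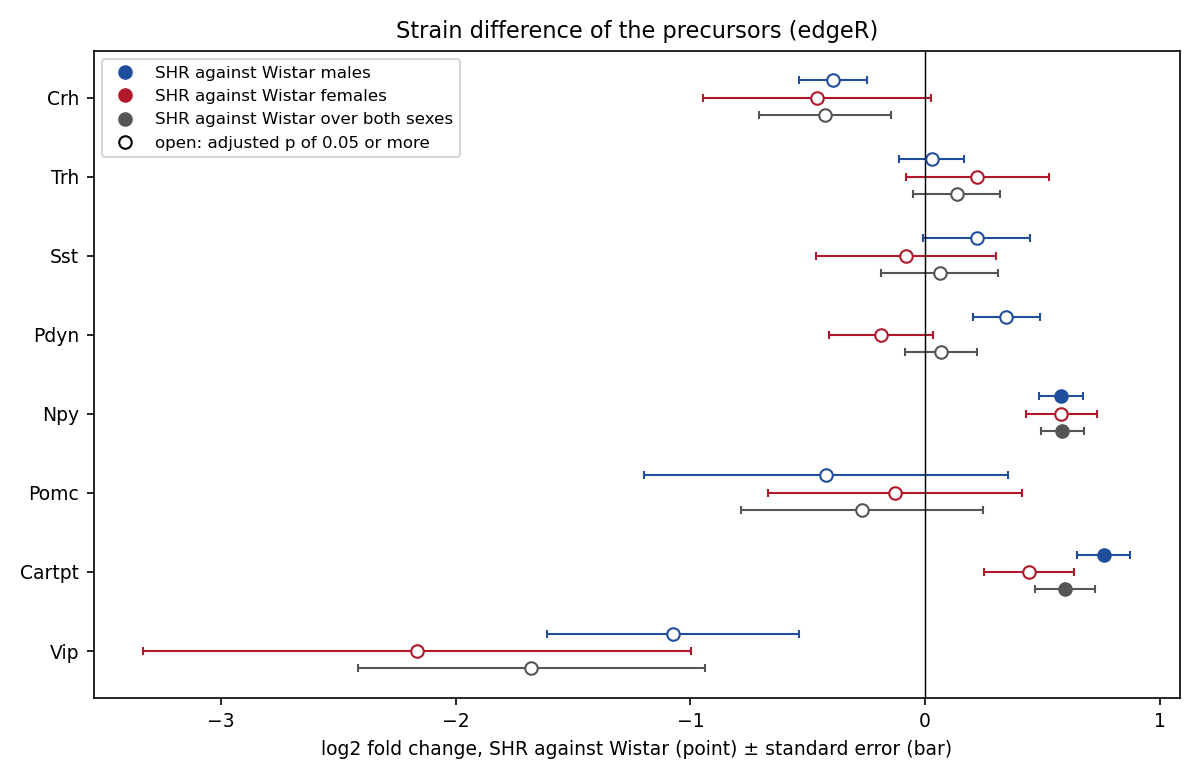
Log2 fold change of SHR against Wistar (x axis, points, with standard error bars) of 8 precursors (y axis) in males, in females and over both sexes. Filled points passed an adjusted p of 0.05 in edgeR, and these are Npy and Cartpt in males (0.58 and 0.76) and over both sexes (0.58 and 0.60).

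Sex was compared within each strain. In Wistar rats none of the 8 precursors passed in edgeR, where 0.0629% of 17490 genes did, and none had an unadjusted p under 0.05, as 4.08% of all genes did. In SHR none passed either, against 0.0694% of 17285 genes, and 2 had an unadjusted p under 0.05 in edgeR, as 14.9% of all genes did. These were Cartpt and Sst, both lower in females. For Cartpt the SHR females had 185 ± 19.5 CPM (SD) and the SHR males 224 ± 11.9 CPM, a log2 fold change of -0.31 ± 0.072 (edgeR unadjusted p = 0.00081, adjusted p = 0.16). A single SHR female, replicate 1, at 206.3 CPM lay above the lowest SHR male at 205.6 CPM. DESeq2's Wald test called it (adjusted p = 0.016, 1.75% of all genes), and no other of the 17 alternatives did, with adjusted p up to 0.54.

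Sst in SHR females was 248 ± 39.6 CPM against 393 ± 127 CPM in SHR males, a log2 fold change of -0.69 ± 0.21 (edgeR unadjusted p = 0.0057, adjusted p = 0.20). All 5 SHR females lay below 4 of the 5 SHR males, and the exception was SHR male replicate 2 at 174 CPM. Without that library the log2 fold change was -0.89 ± 0.11 (edgeR adjusted p = 0.0025, 0.081% of all genes), and no other of the 17 alternatives passed, with adjusted p up to 0.51.

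Whether the strain difference depended on sex was tested by the interaction of strain and sex over all 19 libraries. None of the 8 precursors passed in edgeR, where 0% of 17432 genes did, although 2332 genes had an unadjusted p under 0.05 and DESeq2 called 48. In this main fit no precursor had an unadjusted p under 0.05, and their edgeR adjusted p was at least 0.42. Without Wistar female replicates 1 and 4 the edgeR adjusted p was at least 0.398. Over the 26 alternatives, edgeR settings and DESeq2's Wald test, the lowest adjusted p values were 0.24 for Pdyn and 0.32 for Cartpt. The strain difference of Npy and Cartpt, past the threshold in males and not in females, is therefore not shown to differ between the sexes.

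The precursors were lastly compared with each other across libraries, after each group's mean had been subtracted from log2(CPM + 0.5). Of 28 pairs, 0 passed an adjusted p of 0.05 over the 28 pairs by a two-sided permutation test with 100000 shuffles of the libraries within groups. Crh and Trh varied most closely together (Pearson r = 0.94, permutation p = 0.0028, adjusted p = 0.069; Spearman rho = 0.76, permutation p = 0.0045, adjusted p = 0.11). Trh and Sst had r = 0.92 (permutation p = 0.0049, adjusted p = 0.069; rho = 0.70, permutation p = 0.017, adjusted p = 0.11), and Crh and Sst r = 0.89 (permutation p = 0.018, adjusted p = 0.12; rho = 0.66, permutation p = 0.028, adjusted p = 0.11). The 2 libraries farthest from the median in the first-named gene were then left out, whatever their value in the second. Without them r fell to 0.64 for Crh and Trh, 0.34 for Trh and Sst and 0.50 for Crh and Sst. Wistar female replicate 1 was among those left out in each case, beside Wistar female replicate 3 or, for Trh and Sst, SHR male replicate 2. Without Wistar female replicate 1 alone, r was 0.64 for Crh and Trh, 0.68 for Trh and Sst and 0.48 for Crh and Sst, and without it and replicate 4 it was 0.61, 0.70 and 0.63 in turn.

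Pdyn and Vip ran in opposite directions (r = -0.77, permutation p = 0.0081, adjusted p = 0.075; rho = -0.53, permutation p = 0.048, adjusted p = 0.13). Without the 2 libraries farthest from the median in Pdyn, Wistar female replicates 2 and 4, r was -0.39. Libraries share their total count and the tissue of 1 punch, and the part of punch position in these relations was not tested.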

How the data were processed

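Poly(A) RNA of PVN punches had been sequenced as paired reads from TruSeq Stranded mRNA libraries. The authors trimmed with Trimmomatic (Phred threshold 30), used STAR for alignment against Rn7 and obtained a number of reads per gene from featureCounts. The deposited values are raw counts per Ensembl gene, without normalization. The settings of counting are not given in the sources used here. Of counts from 1 to 100, 73.9% were even, so both reads of a pair may have been counted. Intervals and limits from counts cover counting error only.

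Groups came from the strain and sex in the labels. The whole table was fitted with edgeR 4.0.16 in R 4.3.3 (TMM, quasi-likelihood test, Benjamini-Hochberg adjustment over all genes tested, threshold 0.05), on genes whose mean over the libraries compared exceeded 5 median-of-ratios normalized counts. Since the paper names the Wald test of DESeq2 and Bonferroni correction, both were alternatives here (DESeq2 1.42.0). In males DESeq2 called 2988 genes here with Benjamini-Hochberg adjustment and 542 with Bonferroni adjustment. The number of genes that the paper reports for males lies near the first of these. CPM and permutation tests used Python 3.11.15 (scipy 1.17.1, numpy 2.4.6, pandas 2.3.3), and matplotlib 3.10.9 drew the plots. As edgeR's quasi-likelihood test gives no standard error, it was derived from the F statistic of the test. It is the size of the log2 fold change divided by the square root of F. The edgeR and DESeq2 steps were tested on simulated data.

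The members and lists were chosen with earlier results of these data known. The genes named are the kept members. Their symbols come from the list of identifiers, since none of the tables used here pairs Ensembl identifiers with symbols. Marker genes of cell types, other pathway genes and the genes most like each member were therefore not analysed, and the tissue label was not checked against markers.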

Additional observations from a re-analysis of the deposited data

Results flagged for a closer look

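Among the 32 sets of CPM values (8 precursors in 4 groups), 7 held a library whose distance to the next exceeded the 95% limit of Dixon's test. Chance alone exceeds this limit in about 1 of 20 sets if the values are normally distributed. Trh was low in Wistar female replicate 1 (48.4 CPM, next 178 CPM), the library with the low Crh and Sst. Sst was low in SHR male replicate 2 (174 CPM, next 409.6 CPM). Pomc was high in Wistar male replicate 4 (23.0 CPM, next 4.68 CPM), in SHR male replicate 4 (19.9 CPM, next 4.00 CPM) and in SHR female replicate 2 (11.7 CPM, next 4.04 CPM). Vip was high in SHR male replicate 5 (6.13 CPM, next 2.31 CPM) and in Wistar female replicate 4 (96.9 CPM, next 6.80 CPM). On CPM, Pomc and Vip gave 5 of the 7, while Npy, also made mainly outside the PVN, gave 0. Pomc and Vip are drawn on log axes above, and which sets are flagged depends on the scale used. Dixon's test was not run on log values, so nothing was read from the difference between genes. The part of punch position was not tested.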

How the results depend on the processing

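The calls of Npy and Cartpt in males and over both sexes held under each alternative tried other than Bonferroni adjustment of the edgeR p-values, which left 0 precursors in either comparison. Of all genes, that adjustment left 87 of 17461 in males and 240 of 17432 over both sexes. DESeq2's Wald test with Bonferroni adjustment, added after seeing the data, called both genes in both comparisons. It called 542 of 17461 genes in males and 641 of 17432 over both sexes. In females, where no precursor passed, DESeq2, all 4 groups in 1 fit and leaving out both Wistar female libraries that stood apart (chosen after seeing the data) each called 1, and in the comparison of SHR females with SHR males DESeq2 called 1. With 1 library left out, 0 to 1 precursors were called in females, where 174 to 811 of all genes were. Between the sexes in SHR, 0 to 1 were called, where 11 to 15 of all genes were. In males and over both sexes the number was 2 to 3, beside 1203 to 1883 and 1937 to 2594 of all genes. DESeq2 gave no p for Pomc in males or Vip in females.

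The log2 fold changes that changed sign were those of precursors that had not passed. Without both libraries they were -0.10 (Trh) and 1.41 (Vip) in females and -0.022 (Trh) and -0.053 (Sst) over both sexes. With library totals in place of TMM, Trh in males was -0.026. With 1 library left out, Trh ran from -0.064 to 0.14 in males and -0.012 to 0.34 in females, and Pomc from -1.59 to 0.87 in males, -0.78 to 0.39 in females and -0.77 to 0.29 over both sexes. In females Sst ran from -0.35 to 0.090 and Vip from -2.48 to 0.60, and over both sexes Sst ran from -0.063 to 0.16 and Pdyn from -0.0029 to 0.16. The number of correlated pairs past the threshold ran from 0 to 6, with 6 without Wistar female replicate 5, 2 without Wistar male replicate 5 and 1 without Wistar male replicate 4.

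Libraries were not treated as paired by replicate number, since no pair of groups had r above 0.1 for every pair of same-numbered libraries. With at most 5 same-numbered pairs, this rule cannot exclude that such libraries were handled together. The r ran from -0.33 to 0.51 over all pairs of groups, and in SHR males and Wistar females 4 of 5 exceeded 0.1. With the replicate block, Trh in males was -0.026, and Sst and Vip in females were 0.11 and 0.29. In the block Pdyn passed in males (edgeR adjusted p = 0.0499), and Npy and Cartpt passed in males and over both sexes. Of all genes, the block called 1916 of 17461 in males and 2875 of 17432 over both sexes. Over all genes, edgeR called 403 in females, against 1095 by DESeq2 and 1104 with all 4 groups in 1 fit, and 12 between the sexes in SHR, against 302 by DESeq2. In males 898 genes were called higher and 1204 lower in SHR, against 520 and 1465 with library totals. The lowest count of a kept precursor was 12 (Vip, Wistar female replicate 2), above the 3 to 6 that a count of 0 allows.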
